A study of Homo sapiens with 6 samples.

Results

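The genes described here encode 9 components of the epithelial tight junction and of the apical polarity machinery: CLDN1, CLDN4, CLDN7, OCLN, F11R, TJP1, TJP3, CGN and CRB3. They were chosen by name, with earlier results of these data known, and found by exact match of the gene symbol among the 22681 genes of a read-count table. All 9 had a row, and 8 passed a filter on low counts; CLDN7 did not.

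The cells were TPC-1-Len, a lenvatinib-resistant derivative of TPC-1, a human papillary thyroid carcinoma line. Lenvatinib is an inhibitor of VEGF, FGF and other receptor tyrosine kinases, and all cells of both groups were kept in 10 µM of it. Cells of the shNC group (n = 3) received a non-targeting short hairpin RNA and those of the shKRT15 group (n = 3) a hairpin against KRT15, a type I keratin, both by liposomal transfection, and the comparison asks which genes KRT15 regulates in resistant cells. There was thus 1 resistant line and 1 hairpin per group as far as the labels tell, without untransfected or drug-free cells. The replicates are called biological but are not said to be separate transfections, and p-values here speak only to the spread between these 6 cultures, which may be technical.

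Tight junctions seal the space between neighbouring epithelial cells near their apical border. Claudins form the strands and set which ions pass, with occludin and JAM-A as further membrane proteins, and ZO scaffolds and cingulin tie the strands to actin and myosin. The Crumbs complex marks the apical side of the cell and helps place the junction. Thyroid follicles rely on this seal to keep thyroglobulin in the lumen, and loss of junction proteins is a known feature of epithelial-mesenchymal transition.

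Total counts were 36286059 to 36808695 per shNC library and 39868231 to 41343780 per shKRT15 library. KRT15 itself had 1040, 1137 and 1284 reads in shNC and 1024, 1044 and 1005 in shKRT15, a fall from 32.3 ± 3.77 to 24.7 ± 0.365 CPM (read counts scaled to library size; mean ± SD, n = 3), or −0.38 ± 0.10 (SE) in log2 (edgeR quasi-likelihood test, Benjamini-Hochberg adjusted p = 0.00465). The label "epithelial cell" had mixed support from its markers: KRT18 led an epithelial list that summed to 147 to 161 CPM in the controls and 248 to 259 CPM after knockdown, while EPCAM, CDH1 and KRT19 stayed under 0.2 CPM in every library. KRT18 rose from 115.9 to 214.6 CPM (log2 fold change 0.89, edgeR adjusted p = 1.37e-08). The other 2 tested epithelial markers, KRT8 (0.20, edgeR adjusted p = 0.189) and KRT7 (−0.03, 0.841), were not called. Of the thyroid markers PAX8 was the highest, and NKX2-1 and TSHR were under 0.2 CPM. Markers of other cell types also moved with the group. Summed fibroblast markers lay at 18.1 to 23.6 CPM in the controls and at 7.97 to 8.84 CPM after knockdown (COL1A1 highest, COL1A2 and DCN under 0.2 CPM). Of the 3 tested fibroblast markers 2 fell and PDGFRB rose, from 1.47 to 3.06 CPM (log2 fold change 1.05, edgeR adjusted p = 0.00337), and THY1 had 0, 1 and 0 reads in shNC and 10, 4 and 9 in shKRT15. Summed endothelial markers lay at 8.39 to 9.29 and 6.35 to 6.70 CPM (ROBO4 highest, CLDN5 under 0.2 CPM). PECAM1, at 0.755 CPM in shNC and 1.17 CPM in shKRT15, was not called (edgeR adjusted p = 0.23). Leukocyte markers summed to 91.3 to 94.6 and 53.9 to 71.0 CPM, led by CD68, with CD3E under 0.2 CPM and PTPRC at 21, 5 and 17 reads in shNC and 0 in every shKRT15 library. All cultures were of 1 line, and no cell types were counted. The part of these shifts in the results below was not tested, and in bulk RNA fewer cells of a type and less RNA per cell cannot be told apart.

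The junction genes did not move as a block. Of the 8 tested, CLDN1, CLDN4 and CGN fell, TJP1, TJP3 and CRB3 rose, and OCLN and F11R did not pass the test. The threshold for a call was an adjusted p of 0.05, and 45.0% of all 14356 tested genes were called, 22.1% higher and 23.0% lower. Of these calls 49.0% were higher, and 58.0% were under total-count scaling. The CPM ranges of the groups did not overlap for CLDN1, CLDN4, TJP3, CGN and CRB3, against 54.0% of all tested genes. The median log2 fold change over the 8 genes was −0.10, beside 0.00 over all tested genes. With 3 libraries against 3, a two-sided exact permutation test of a single gene cannot go below p = 0.1, and it gave 0.1 for those 5 genes, 0.2 for TJP1 and F11R and 1 for OCLN.

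**Figure D1:**
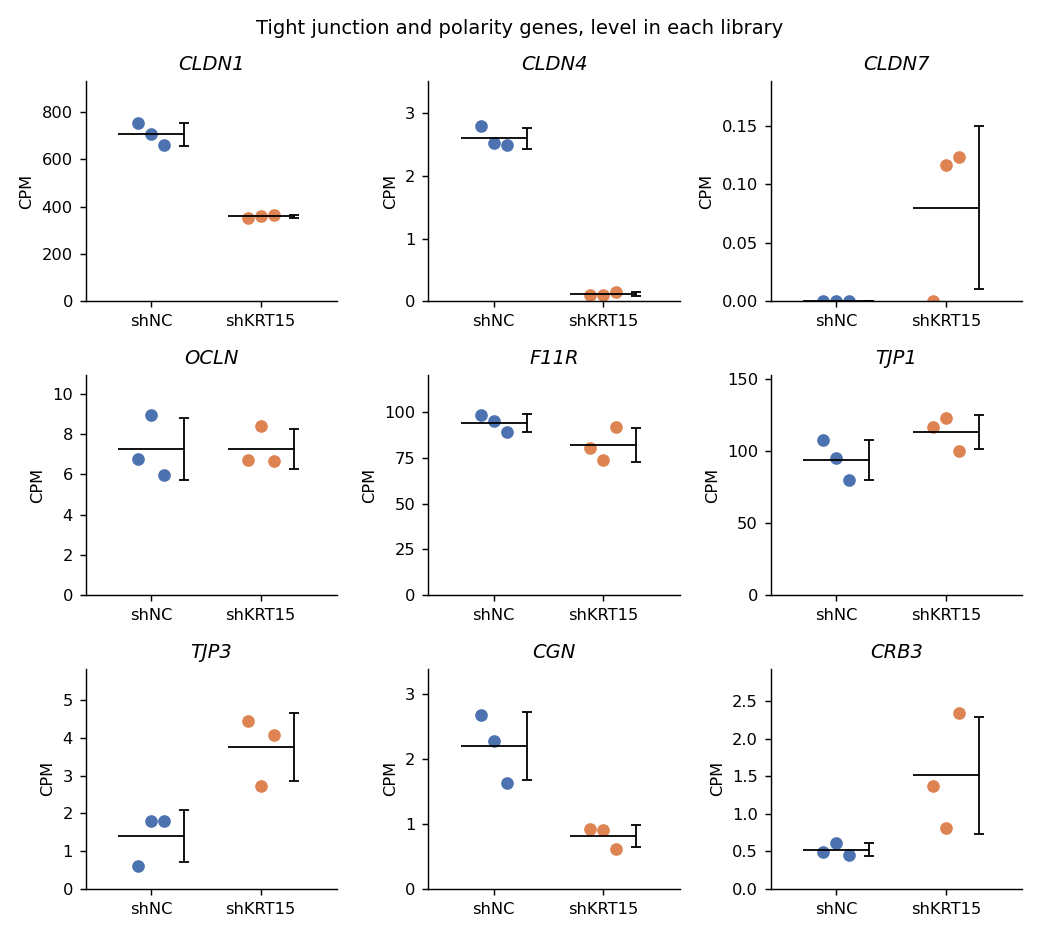
Level of each of the 9 genes in each library, in CPM (linear axes that start at 0 and differ between panels); points are libraries, lines the group means and bars the SD over 3 libraries. CLDN1, CLDN4 and CGN were lower in every shKRT15 library than in any shNC library, TJP3 and CRB3 were higher, and OCLN, F11R and TJP1 overlapped.

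Of the 3 claudins among the 9 genes, CLDN1 and CLDN4 fell and CLDN7 was not tested. CLDN1, a barrier-forming claudin that is abundant in many papillary thyroid carcinomas, lies on chromosome 3 at 190305701 to 190322475 on the minus strand (GRCh38, GENCODE 29). It had 27322, 25080 and 23321 reads in the shNC libraries, or 754, 704 and 658 CPM, and 14336, 15460 and 14727 reads in the shKRT15 libraries, or 350.1, 360.1 and 364 CPM. All 3 knockdown libraries lay well below all 3 controls and close to each other. The level fell from 705.5 ± 48.2 to 358 ± 7.23 CPM (mean ± SD, n = 3), a log2 fold change of −0.98 ± 0.07 (SE; 95% confidence interval −1.13 to −0.83; edgeR adjusted p = 6.69e-09), or −49.2%.

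In GENCODE 29 CLDN1 lies next to CLDN16, the paracellular magnesium claudin of the kidney. There the 2 genes run apart with 65 bases between their outermost annotated starts, CLDN16 on the plus strand from 190322541 to 190412143. Which start the CLDN16 reads came from was not tested. The bases between them, chr3:190322476-190322540, are shown because the 2 genes on either side of them moved in opposite directions. They are printed 5′ to 3′ on the CLDN1 strand, from the RefSeq promoter table (GRCh38.p14), with matches to the GC box GGGCGG on either strand in capitals.
CLDN1 to CLDN16: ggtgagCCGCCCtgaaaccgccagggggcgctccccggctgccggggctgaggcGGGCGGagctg
CLDN16 rose from 5.14 to 7.82 CPM (log2 fold change 0.61 ± 0.15, adjusted p = 0.00371) where CLDN1 fell. RefSeq places the span of CLDN16 over CLDN1 itself, and the annotation and strand setting behind the counts were not given in the sources used here, so reads of the 2 genes may not be fully separated.

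CLDN4, a claudin of tight, chloride-selective epithelia and a receptor for a clostridial toxin, lies on chromosome 7 at 73799542 to 73832693 on the plus strand. It was a low-abundance gene with 101, 90 and 88 reads in shNC, and it was at 4, 4 and 6 reads in shKRT15. These are 2.79, 2.53 and 2.48 CPM against 0.0977, 0.0932 and 0.148 CPM. Every shKRT15 library held only a handful of reads. The fall from 2.60 ± 0.166 to 0.113 ± 0.0307 CPM was −4.49 ± 0.42 in log2 (95% confidence interval −5.38 to −3.60, edgeR adjusted p = 1.62e-07), that is 22.4-fold, with an interval of 12.1 to 41.5. The ratio of the 2 claudins was lower in every shKRT15 library than in any control, without reaching the threshold: the log2 ratio of CLDN4 to CLDN1 was −8.08, −8.12 and −8.05 in the shNC libraries and −11.81, −11.92 and −11.26 in the shKRT15 libraries. The difference of −3.58 kept the groups apart (two-sided exact permutation p = 0.1, the smallest possible; 0.2 after adjustment over 4 ratios).

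The 250 bases before the RefSeq start of CLDN4 held 2 matches to the AP-1 motif TGANTCA, which 6.57% of 35116 windows of that length, over 27305 genes, hold at least once. They are shown as the only AP-1 matches before any of the 9 genes for which the RefSeq table gives a window, with 10 bases on each side where the window allows and the motif in capitals; positions count from the transcript start.
CLDN4, −242, chr7:73830746-73830770: ctgggctgTGATTCAgtgtctgtct
CLDN4, −161, chr7:73830825-73830851: gactggatagTGACTCAgggacccggg

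CLDN7, a basolateral claudin that binds EpCAM, lies on chromosome 17 at 7259903 to 7263983 on the minus strand. No read was counted in any shNC library, and 0, 5 and 5 reads were counted in shKRT15. The 10 reads stand against a floor of 3 reads over the shNC group, which puts the gene 3.00-fold higher in shKRT15. That floor covers counting error in shNC only, and the 10 reads were taken as exact, so the ratio is no lower limit. The difference rests on 2 of 3 libraries and was not tested, and 269 of 2492 exon bases are shared with AC003688.1 on the same strand in GENCODE 29. With ELP5, on the other strand, 38 exon bases are shared; that gene was at 0.20 ± 0.10 in log2 (adjusted p = 0.131). EPCAM, the partner of claudin-7, had 0, 0 and 2 reads in shNC and 0, 1 and 5 in shKRT15.

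Per kilobase of merged exons, on the CPM scale, all 16 claudins of the table summed to 268, 252 and 237 in shNC and to 129, 133 and 134 in shKRT15. The 3 knockdown libraries lay at 132 ± 2.78 and the controls at 252 ± 15.9. CLDN1 alone made up 80.3 ± 0.445% of that sum in shNC and 77.9 ± 0.302% in shKRT15. Most of the rest was CLDN12, a claudin without the usual PDZ-binding end, which fell alongside CLDN1 from 165.7 to 91.6 CPM (−0.86 ± 0.07, adjusted p = 3.7e-08). Of the claudins outside the 9 genes, 21 were listed and 4 tested: CLDN16 rose, CLDN12 fell, and CLDN15 (−0.57 ± 0.35, adjusted p = 0.194) and CLDN23 (1.38 ± 0.71, adjusted p = 0.127) were not called. CLDN23 ranged from 0.81 to 2.13 with a library left out and was called by limma-voom (2.35, adjusted p = 0.0471). CLDN16 took 0.624% of the sum in the controls and 1.81% after knockdown, and CLDN4 0.245% and 0.0204%.

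**Figure D2:**
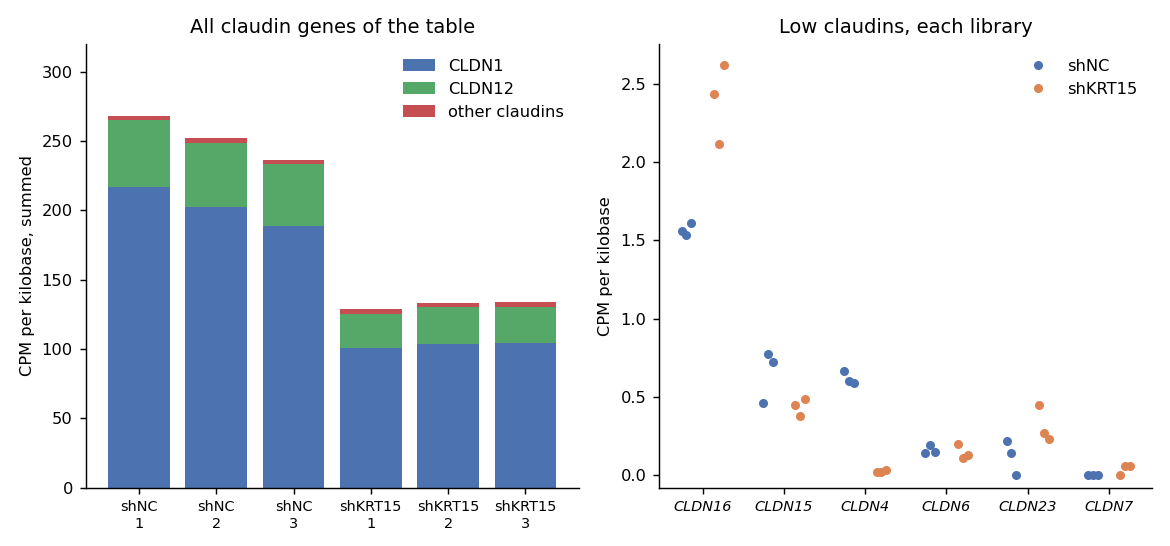
Left, summed level of the claudin genes in each library in CPM per kilobase, as bars stacked by gene; right, the lower claudins with 1 point per library. The sums lay at 237 to 268 in shNC and at 129 to 134 in shKRT15, CLDN1 was the bulk of it in all 6 libraries, and CLDN16 and CLDN4 moved in opposite directions.

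Occludin and JAM-A, the other membrane proteins, showed no call. OCLN, the tetraspan MARVEL protein that gave the tight junction its first known membrane component, is on chromosome 5 at 69492292 to 69558104 on the plus strand. Its levels were 6.77, 8.95 and 5.98 CPM in shNC and 6.72, 8.38 and 6.65 CPM in shKRT15, from 212 to 360 reads per library. The groups overlapped fully, and the log2 fold change was 0.00 ± 0.17 with a 95% confidence interval of −0.36 to 0.36 (edgeR adjusted p = 0.988), so a change within that interval was not detectable. GENCODE 29 lists a pseudogene copy, OCLNP1, on the same chromosome, and reads could be split between the copies.

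F11R, which encodes the immunoglobulin-like adhesion protein JAM-A, an organiser of PAR polarity proteins at new contacts, lies on chromosome 1 at 160995211 to 161021348 on the minus strand. It measured 98.3, 95.1 and 88.8 CPM in shNC and 80.5, 73.8 and 91.7 CPM in shKRT15. The third shKRT15 library lay above the lowest control, so the groups overlapped. The log2 fold change of −0.20 ± 0.09 (95% confidence interval −0.38 to −0.02) missed the threshold (edgeR adjusted p = 0.0682) and passed it without the third shNC library (0.0209), without the third shKRT15 library (0.0155) or after correction for GC content and length (0.00135). In GENCODE 29, 1853 of 5066 exon bases of F11R are shared with a readthrough gene on the same strand. The ratio of OCLN to F11R differed by 0.22 in log2 with overlapping groups (two-sided exact permutation p = 0.5).

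Other membrane proteins of the junction, a list of 12, had 7 tested genes, of which 0 rose, 2 fell and 5 were not called, with a median log2 fold change of −0.08. That is 28.6% called, beside 45.0% of all tested genes. BVES, a Popeye-domain adhesion protein, fell from 17.9 to 9.61 CPM (−0.89 ± 0.12, adjusted p = 9.53e-06). TMEM47, a claudin-related protein, fell from 4.26 to 2.84 CPM (adjusted p = 0.0334), a call lost without the second shNC library (0.0602), the third shNC library (0.0921), the first shKRT15 library (0.148) or the third shKRT15 library (0.0969), under total-count scaling (0.0605) and after correction for GC content and length (0.136). LSR, which anchors tricellular contacts, stood at 0.924 and 0.921 CPM (adjusted p = 0.996). MARVELD2, the tricellular protein tricellulin, had 0 reads in every shNC library and 1, 9 and 7 in shKRT15. That is 5.10-fold higher against the same floor of 3 reads over the shNC group, with the shKRT15 reads taken as exact. MARVELD3 had 4 reads in the first shNC library and 0 in the other 5. CXADR (0.10 ± 0.13, adjusted p = 0.564) and JAM2 (−0.38 ± 0.41, adjusted p = 0.473) were not called.

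The ZO scaffold genes TJP1 and TJP3 rose. TJP1 encodes ZO-1, the PDZ scaffold that links claudins and occludin to actin, and lies on chromosome 15 at 29699367 to 29968865 on the minus strand. It measured 107, 95.1 and 79.7 CPM in shNC and 117, 123 and 100.3 CPM in shKRT15. The highest control exceeded the lowest knockdown library, so the groups overlapped. The rise from 94.1 ± 13.9 to 113 ± 11.7 CPM was 0.27 ± 0.10 in log2 (95% confidence interval 0.05 to 0.49, edgeR adjusted p = 0.0406). That call was lost without the second shNC library (0.28, adjusted p = 0.0897), the third shNC library (0.16, 0.126), the first shKRT15 library (0.26, 0.116) or the second shKRT15 library (0.21, 0.144).

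TJP3, encoding ZO-3, the scaffold that is largely restricted to epithelia, lies on chromosome 19 at 3708109 to 3750813 on the plus strand. It had 22, 64 and 64 reads in shNC, or 0.608, 1.80 and 1.81 CPM, and 182, 117 and 165 reads in shKRT15, or 4.45, 2.73 and 4.08 CPM. Every shKRT15 library was above every control, and the first control was well below the other two. The log2 fold change was 1.42 ± 0.34 (95% confidence interval 0.70 to 2.13, edgeR adjusted p = 0.00266), or 2.67-fold, and 1.06 to 1.64 with each library left out in turn. Relative to TJP1 within each library the difference was 1.27 in log2 and the groups overlapped (two-sided exact permutation p = 0.2, 0.267 after adjustment over 4 ratios). That test cannot go below 0.1 with these libraries, so it cannot decide whether TJP3 rose more than TJP1.

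CGN encodes cingulin, a coiled-coil plaque protein that couples ZO-1 to myosin and to RhoA regulators, and lies on chromosome 1 at 151510510 to 151538692 on the plus strand. It had 97, 81 and 58 reads in shNC and 38, 39 and 25 in shKRT15, or 2.68, 2.27 and 1.64 CPM against 0.928, 0.908 and 0.618 CPM. The lowest control was still above the highest knockdown library. The log2 fold change was −1.42 ± 0.34 (95% confidence interval −2.13 to −0.71, edgeR adjusted p = 0.00241), a 2.68-fold fall. Against TJP1, its binding partner at the plaque, CGN had log2 ratios of −5.32, −5.39 and −5.61 in shNC and −6.98, −7.08 and −7.34 in shKRT15, a difference of −1.69 with groups apart (two-sided exact permutation p = 0.1, the smallest possible; 0.2 after adjustment). Its paralogue CGNL1, paracingulin, moved the other way, from 17.3 to 25.7 CPM (0.57 ± 0.11, adjusted p = 0.000516). Per kilobase CGNL1 was the more abundant of the pair in both groups, at 2.39 and 3.56 CPM per kilobase against 0.431 and 0.161 for CGN.

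Among the 20 other scaffold and plaque genes, all of them tested, 7 rose, 4 fell and 9 were not called, with a median log2 fold change of 0.07. Without the first shNC library or the third shKRT15 library 2 were called lower, and without the third shNC library 6. With all libraries, the called share of this list was above the 45.0% of all tested genes, and the difference was not tested. Beside CGNL1, the angiomotins AMOT (13.0 to 25.2 CPM, 0.96 ± 0.14, adjusted p = 3.71e-05) and AMOTL1 (35.2 to 60.7 CPM, 0.79 ± 0.11, adjusted p = 1.32e-05) rose. Angiomotins bind PATJ and ZO proteins and hold YAP outside the nucleus. PATJ, the multi-PDZ partner of the Crumbs complex, rose from 18.0 to 25.6 CPM (0.51 ± 0.10, adjusted p = 0.000599). RAB13, a small GTPase that delivers claudin-1 and occludin to the junction, fell from 200.2 to 142.7 CPM (−0.49 ± 0.09, adjusted p = 0.000367).

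CRB3, the small epithelial Crumbs protein that recruits PALS1 and PATJ to the apical membrane, lies on chromosome 19 at 6463777 to 6467221 on the plus strand. It had 18, 22 and 16 reads in shNC and 56, 35 and 95 in shKRT15, or 0.497, 0.618 and 0.452 CPM against 1.37, 0.815 and 2.35 CPM. All shKRT15 libraries were above all controls but were spread widely among themselves. The log2 fold change was 1.53 ± 0.44 (95% confidence interval 0.59 to 2.46, edgeR adjusted p = 0.00978), or 2.88-fold, and the call was lost without the third shKRT15 library (1.06, adjusted p = 0.117). CRB3 lies across SLC25A23 on the opposite strand, with no shared exon bases, and SLC25A23 rose from 93.1 to 124.6 CPM (0.42 ± 0.07, adjusted p = 0.000208). As the strand setting of the counts was not given, the part of its reads in the CRB3 count was not tested. CRB3 also shares 15 exon bases with DENND1C, which had 3 to 11 reads per library.

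The window before the RefSeq start of CRB3 is shown for its E2 boxes (CAGGTG, or CACCTG on the other strand), the letters that SNAI and ZEB repressors and several basic helix-loop-helix factors bind. It held 5, and 26 of the 35116 windows (0.0740%) hold 5 or more, while 17.5% hold at least 1. All 5 are shown, read 5′ to 3′ on the gene's strand with the box in capitals.
CRB3, −228, chr19:6464033-6464058: gctcgcaatgCAGGTGtaaggtcccc
CRB3, −208, chr19:6464053-6464078: gtccccctcaCACCTGcgcgcttccg
CRB3, −147, chr19:6464114-6464139: ggtcccgttaCAGGTGcgcccacagc
CRB3, −89, chr19:6464172-6464197: cagcgaggctCAGGTGcacaagccgg
CRB3, −60, chr19:6464201-6464226: tgcgctctccCAGGTGagtgactaaa
CLDN7 held 4 at its second listed RefSeq start, a number reached or passed by 43 windows (0.123%), shown on its own minus strand.
CLDN7, −174, chr17:7262637-7262662: tcttcctcctCACCTGggcaaggagg
CLDN7, −135, chr17:7262598-7262623: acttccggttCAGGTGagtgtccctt
CLDN7, −20, chr17:7262483-7262508: tacatatactCAGGTGcgccccacct
CLDN7, −9, chr17:7262479-7262497: aggtgcgcccCACCTGtcc
The other windows are described by their counts. TJP1 and TJP3 each held 1 E2 box at 1 of their starts and OCLN 1 at each of its 2 starts. The windows of CLDN1, CLDN4 and CGN held 0 E2 boxes, and F11R had no window. CGN held 5 GC boxes, as 4.15% of windows do at least, and 42.6% of windows hold at least 1. The grainyhead motif AACCGGTT, the palindrome of GRHL factors, was in no window of these genes and is in 0.117% of all windows. A match is only a run of letters, and these data hold no measure of binding.

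**Figure D3:**
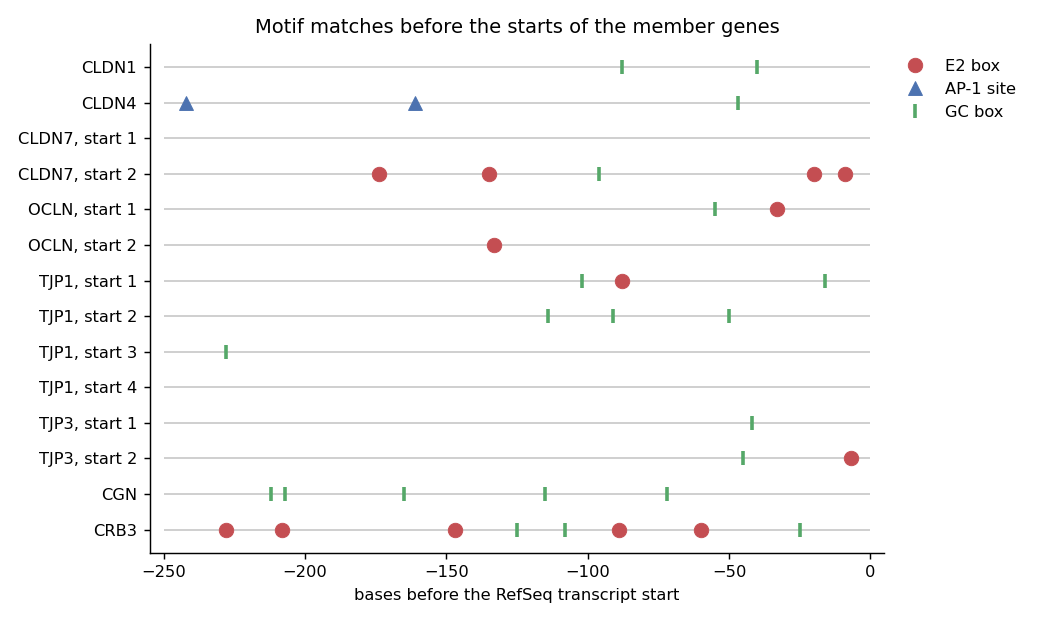
Positions of motif matches in the 250 bases before each RefSeq transcript start of 8 of the 9 genes (14 windows), in bases before the start; circles are E2 boxes, triangles AP-1 motifs and bars GC boxes. CRB3 carries 5 E2 boxes and the second CLDN7 start 4, and CLDN1, CLDN4 and CGN carry 0.

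Regulators of epithelial junctions were measured in the same libraries, among them ELF3, for which no motif was searched. Of 9 tested genes on a list of 15 epithelial junction regulators, 2 rose, 3 fell and 4 were not called, with a median log2 fold change of −0.27. That is 55.6% called, beside 45.0% of all tested genes. The repressors ZEB2 (73.6 to 31.7 CPM, −1.22 ± 0.10, adjusted p = 4.97e-08), ZEB1 (32.6 to 23.5 CPM, −0.47 ± 0.13, adjusted p = 0.0061) and SNAI2 (37.6 to 27.6 CPM, −0.45 ± 0.09, adjusted p = 0.000516) fell, and SNAI1 was at −0.14 ± 0.17 (adjusted p = 0.554). The epithelial activators GRHL1 (2.43 to 4.83 CPM, 0.99 ± 0.24, adjusted p = 0.00254) and ELF3 (131.7 to 172.9 CPM, 0.39 ± 0.07, adjusted p = 0.000251) rose; GRHL2 was not analysed here. No link between these factors and the junction genes was tested.

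Of 13 tested Crumbs and PAR complex genes other than CRB3, 1 rose, 1 fell and 11 were not called, with a median log2 fold change of −0.09. That is 15.4% called, beside 45.0% of all tested genes, and without the third shNC library 2 were higher and 2 lower. PARD3, the PAR scaffold that JAM-A recruits, rose from 99.0 to 138.4 CPM (0.48 ± 0.07, adjusted p = 4.8e-05). LIN7C, a small PDZ partner of PALS1, fell from 44.3 to 29.1 CPM (−0.61 ± 0.10, adjusted p = 9.52e-05). PALS1, the direct partner of Crumbs, was at −0.09 ± 0.08 (adjusted p = 0.406), and the kinase gene PRKCI at −0.07 ± 0.10 (adjusted p = 0.601), and both estimates turned positive after correction for GC content and length. PALS1 was called lower without the third shNC library (−0.18, adjusted p = 0.0489). PARD6B was at −0.25 ± 0.19 (adjusted p = 0.316).

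The basolateral side opposes Crumbs. A list of Scribble complex genes and basolateral kinases also held genes that are neither, VANGL1 and VANGL2 among them. Of its 15 tested genes, 5 rose, 3 fell and 7 were not called, with a median of 0.17. That is 53.3% called, beside 45.0% of all tested genes. Without the second shNC library 1 was called lower, and without the first or the third shKRT15 library 3 were called higher. VANGL1, a planar polarity protein, rose from 41.4 to 79.3 CPM (0.94 ± 0.08, adjusted p = 1.02e-07) and SCRIB from 93.6 to 127.0 CPM (0.44 ± 0.08, adjusted p = 0.000197). VANGL2 rose from 25.3 to 32.3 CPM (0.35 ± 0.09, adjusted p = 0.00514). The kinase MARK3 fell from 98.1 to 78.5 CPM (−0.32 ± 0.08, adjusted p = 0.00386), a call lost without the first shKRT15 library (0.0544). Of 6 tested claudin-7 partners and junction proteases, CD9, a tetraspanin, rose (105.6 to 142.1 CPM, 0.43 ± 0.07, adjusted p = 0.000154) and 5 were not called. In that list 16.7% were called, beside the same 45.0%. Over the 84 tested genes of all these lists and of an adherens junction list, 20 rose, 16 fell and 48 were not called; 42.9% were called, beside 45.0% of all tested genes.

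**Figure D4:**
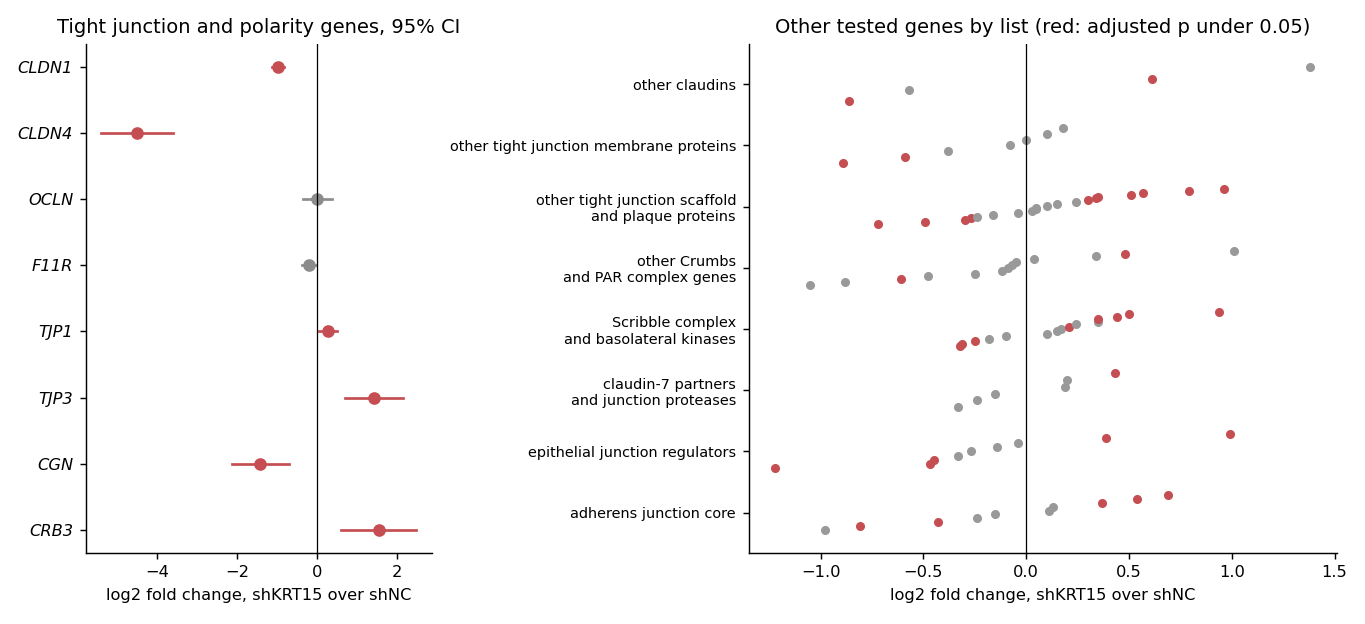
Left, log2 fold change (shKRT15 over shNC) of the 8 tested junction and polarity genes with 95% confidence intervals; right, the other tested genes of each list as points, red where the adjusted p was under 0.05. The 8 genes spread from −4.49 (CLDN4) to 1.53 (CRB3), and called genes lie on both sides of 0 in most lists.

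The order of abundance changed at its low end. In CPM per kilobase of merged exons, the shNC order was CLDN1 (203 ± 13.9), F11R (19.5 ± 0.998), TJP1 (9.70 ± 1.43), OCLN (1.10 ± 0.235), CLDN4 (0.620 ± 0.0394), CGN (0.431 ± 0.103), TJP3 (0.393 ± 0.193), CRB3 (0.328 ± 0.0539) and CLDN7 (0). In that group CGN overlapped TJP3, TJP3 overlapped CRB3, and no other neighbours in the order overlapped. In shKRT15 the order was CLDN1 (103 ± 2.08), F11R (17.0 ± 1.88), TJP1 (11.7 ± 1.21), OCLN (1.11 ± 0.150), TJP3 (1.05 ± 0.254), CRB3 (0.949 ± 0.488), CGN (0.161 ± 0.0341), CLDN7 (0.0388 ± 0.0336) and CLDN4 (0.0269 ± 0.00731). There OCLN, TJP3 and CRB3 were not separated, nor were CLDN7 and CLDN4. CLDN4 went from the fifth place to the last.

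For each called gene, the most similar patterns were sought among the 84 tested genes of the other lists, by the root mean square difference of log2 CPM (with 0.1 CPM added) over the 6 libraries, each gene centred on its shNC mean. CLDN1 was closest to BVES (0.0794) and CLDN12 (0.0921), and TJP1 to MAGI3 (0.119) and CXADR (0.163). CGN was closest to ZEB2 (0.179) and BVES (0.391). TJP3 (0.666) and CRB3 (0.458) were both closest to VANGL1, followed by AMOT at 0.736 and 0.481. CLDN4 had no near match, with ZEB2 at 1.75 and BVES at 1.97.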

How the data were processed

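RNA-seq read counts of 6 libraries were analysed. The values deposited by the authors were raw counts per gene, whole numbers without normalization; GRCh38 is named in the submitters' processing notes, while aligner, counter, annotation and strandedness were not given in the sources used here. Libraries were grouped by their titles. The 9 genes, the gene lists and the tests were chosen with earlier results of these data known. Genes kept by filterByExpr (minimum count 10, total 15) entered edgeR 4.0.16 and its quasi-likelihood test (R 4.3.3, TMM scaling, robust, group as the only term), with Benjamini-Hochberg adjustment over all 14356 genes tested. CPM use TMM-scaled library sizes. The fit was tested on simulated data. Chi-square per degree of freedom between 2 libraries was 6.05 to 29.0 within a group and 169 to 195 across groups, so none counted as a repeat. Depth limits precision at low counts. Intervals of counts cover counting error only, and the floor of 3 reads covers that of the shNC group alone.

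Named genes were the 9 genes, KRT15, the 4 smallest p-values of each list, all called genes of lists with 6 or fewer of them, and a fixed set of junction genes and regulators, of which 1 is not reported here; the deposited annotation gave further lists for the KEGG tight junction pathway and the GO bicellular tight junction. SLC25A23, DENND1C, ELP5 and AC003688.1 were named for their overlap, and PTPRC, PDGFRB and THY1 after their values were seen. CDH3, CTNNB1, JUP, NECTIN2 and NECTIN4 were also named after their values were seen, as the uncalled genes of the adherens junction list. Some genes with the 4 smallest p-values of a list are not reported here. Gene positions and lengths came from GENCODE 29 (GRCh38), and motifs were searched on both strands in the RefSeq promoter windows (GRCh38.p14), of which 8 of the 9 genes had at least 1. Alternatives were other scalings, DESeq2 1.42.0, limma-voom (limma 3.58.1), other filters, protein-coding genes only, the replicate number as a block, a correction for GC content and length (values for 93.3% of tested genes), and leaving out each library.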

Additional observations from a re-analysis of the deposited data

How the results depend on the processing

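The calls for CLDN1, CLDN4, TJP3 and CGN held under every alternative run. CLDN4 passed the low-count filters through its shNC libraries alone, so the runs with a filter are no separate support for its fall. CGN passed the minimum of 1 CPM in 3 libraries through its shNC libraries alone. That run is thus no separate support for the fall of CGN. Of the 9 genes, 2 to 3 were called higher and 3 to 4 lower. Leaving out each library in turn gave log2 fold changes of 0.16 to 0.38 for TJP1, 1.06 to 1.83 for CRB3, −0.28 to −0.12 for F11R and −0.12 to 0.19 for OCLN, which changed sign. CRB3 was not tested at a minimum of 1 CPM in 3 libraries. F11R was called with the replicate block (−0.20, adjusted p = 0.0457), after correction for GC content and length (−0.27, adjusted p = 0.00135) and with both (−0.27, adjusted p = 0.00188); the cause was not tested. Same-numbered libraries did not deviate together (correlations 0.0188, −0.00742 and 0.0462). That cannot tell whether the replicates were made in pairs, which the labels do not say. The replicate block called 6733 genes in place of 6464. VANGL2 lost its call with both (0.19, adjusted p = 0.0516). Estimates that were not called changed sign for LSR (0.01 upper-quartile scaling, 0.06 total-count scaling, 0.02 limma-voom, 0.01 replicate block, −0.21 to 0.23 with a library left out), PALS1 (0.06 after the GC content and length correction, with or without the block, though called lower without the third shNC library, −0.18) and PRKCI (0.13 likewise, −0.19 to 0.00 with a library left out). Over all genes, 5194 to 7105 were called; 58.0% of the calls were higher under total-count scaling, in place of 49.0%.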

Other observations

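Adherens junctions lie just below the tight junction and join cells through cadherins, nectins and catenins. Of 10 tested core genes, 3 rose, 2 fell and 5 were not called, with a median log2 fold change of −0.02. The called share was above the 45.0% of all tested genes, and the difference was not tested. CDH1, the epithelial cadherin, had 2, 2 and 0 reads in shNC and 0, 0 and 1 in shKRT15. CDH2, the neural cadherin, fell from 28.8 to 16.5 CPM (−0.81 ± 0.10, edgeR adjusted p = 5.39e-06). The catenins CTNNA1 (400.9 to 519 CPM, 0.37 ± 0.07, adjusted p = 0.00029) and CTNND1 (2.54 to 4.10 CPM, 0.69 ± 0.20, adjusted p = 0.00982) rose. Of the nectins, NECTIN1 rose from 22.8 to 33.3 CPM (0.54 ± 0.11, adjusted p = 0.000435) and NECTIN3 fell from 139.6 to 103.8 CPM (−0.43 ± 0.10, adjusted p = 0.00178). Not called were CDH3, the catenins CTNNB1 and JUP, and the nectins NECTIN2 and NECTIN4.

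Larger annotated sets also moved in both directions. Of 129 tested genes that the deposited annotation places in the KEGG tight junction pathway, 38 rose, 34 fell and 57 were not called, and of 89 in the GO bicellular tight junction, 26 rose, 23 fell and 40 were not called. These are 55.8% and 55.1% called, beside 45.0% of all tested genes, with the 9 genes included, and 54.5% and 53.1% without them. Under total-count scaling 45 of the KEGG genes were higher and 28 lower. The 4 smallest p-values of the KEGG set were those of PCNA, MYL9, CLDN1 and EZR, and those of the GO set SAPCD2, CLDN1, CLDN12 and CLDN4. PCNA, the replication clamp, rose from 69.8 to 151.6 CPM (1.12 ± 0.07, adjusted p = 1.35e-09), SAPCD2, a regulator of spindle orientation, from 18.4 to 65.2 CPM (1.82 ± 0.09, adjusted p = 8.52e-11) and EZR, the membrane-to-actin linker ezrin, from 223.9 to 398.4 CPM (0.83 ± 0.07, adjusted p = 2.9e-08). MYL9, a myosin regulatory light chain, fell from 232.1 to 107.4 CPM (−1.11 ± 0.08, adjusted p = 3.82e-09).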
